A study of Mus musculus with 6 samples.

Results

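The 43 genes described here carry a cell through mitosis, from the kinase that starts it to the ring that cuts the daughter cells apart. They were taken by gene symbol from a deposited table of 24421 symbols, and all 43 were among the 11801 genes with enough counts to be tested. Each was placed in 1 of 8 steps, which run from mitotic entry to cytokinesis. RNA was sequenced from C2C12 cells, 1 mouse muscle line. One group of 3 libraries came from cells with a lentiviral hairpin against Gaa (shGAA), and the other 3 came from cells with a scrambled hairpin (shScrambled). Both groups were grown in 10% FBS, selected with puromycin, put into 2% horse serum with 4.5 g/l glucose, and labelled as myotubes. Whether the libraries of a group are separate infections or cultures is not stated, nor is the number of hairpins, and the word Fed in every title is not explained. The spread behind each adjusted p is thus that among libraries, and it may be a technical one.

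Mitosis begins when cyclin-dependent kinase 1, bound by A- and B-type cyclins, is activated and drives chromosome condensation, spindle assembly and breakdown of the nuclear envelope. The spindle checkpoint then holds back the anaphase-promoting complex (APC/C) until every kinetochore is attached, after which sister chromatids part and the central spindle places the cleavage furrow. Most genes of this program are transcribed in G2 and M phase and kept silent in resting cells by DREAM, a repressor complex that binds the cell cycle genes homology region (CHR) of their promoters, while NF-Y binds CCAAT boxes nearby. Myoblasts leave the cell cycle as they differentiate and fuse. Dividing cells in a differentiated C2C12 culture are therefore among those that have not fused.

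Promoter sequence shows motifs that many of these genes share, though not all. The stretches below run from 150 bases before to 30 bases after the start annotated by RefSeq on GRCm38.p6, 5′ to 3′ on the strand of the gene, 1 gene for each step: the member with the largest fall in its step that the RefSeq promoter table lists. They are Ccnb2 (chr9:70421525-70421704, minus strand), Kif4 (chrX:100625915-100626094, plus strand), Aurka (chr2:172370541-172370720, minus strand), Cenpa (chr5:30666736-30666915, plus strand), Bub1 (chr2:127831830-127832009, minus strand), Cdc20 (chr4:118437314-118437493, minus strand), Cdca8 (chr4:124936888-124937067, minus strand) and Prc1 (chr7:80294301-80294480, plus strand). Capitals mark TTTGAA or TTTAAA, the CHR letters, and CCAAT, each on either strand, so that a CCAAT box on the other strand reads ATTGG.
Ccnb2: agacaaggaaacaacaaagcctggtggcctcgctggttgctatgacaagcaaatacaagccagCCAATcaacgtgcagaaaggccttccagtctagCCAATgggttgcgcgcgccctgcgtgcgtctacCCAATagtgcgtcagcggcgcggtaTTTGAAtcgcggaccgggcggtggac
Kif4: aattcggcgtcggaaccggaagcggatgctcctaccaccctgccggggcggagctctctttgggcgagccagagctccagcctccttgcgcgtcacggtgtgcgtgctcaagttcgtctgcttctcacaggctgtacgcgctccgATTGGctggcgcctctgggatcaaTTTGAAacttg
Aurka: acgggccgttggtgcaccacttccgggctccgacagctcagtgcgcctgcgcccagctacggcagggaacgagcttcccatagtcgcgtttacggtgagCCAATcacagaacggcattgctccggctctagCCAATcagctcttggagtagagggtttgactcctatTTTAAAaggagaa
Cenpa: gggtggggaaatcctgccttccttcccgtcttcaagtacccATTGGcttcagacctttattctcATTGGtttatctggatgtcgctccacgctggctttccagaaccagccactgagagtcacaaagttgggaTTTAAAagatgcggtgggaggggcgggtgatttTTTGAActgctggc
Bub1: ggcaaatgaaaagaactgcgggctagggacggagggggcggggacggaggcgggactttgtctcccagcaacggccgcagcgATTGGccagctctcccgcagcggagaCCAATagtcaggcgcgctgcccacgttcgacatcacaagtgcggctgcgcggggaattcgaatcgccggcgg
Cdc20: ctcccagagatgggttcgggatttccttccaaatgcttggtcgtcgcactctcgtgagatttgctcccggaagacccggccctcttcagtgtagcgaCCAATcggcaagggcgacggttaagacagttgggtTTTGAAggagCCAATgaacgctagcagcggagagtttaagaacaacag
Cdca8: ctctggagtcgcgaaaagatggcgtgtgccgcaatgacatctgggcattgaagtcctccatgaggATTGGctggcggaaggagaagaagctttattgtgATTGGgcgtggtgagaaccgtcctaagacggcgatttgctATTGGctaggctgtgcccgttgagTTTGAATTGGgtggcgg
Prc1: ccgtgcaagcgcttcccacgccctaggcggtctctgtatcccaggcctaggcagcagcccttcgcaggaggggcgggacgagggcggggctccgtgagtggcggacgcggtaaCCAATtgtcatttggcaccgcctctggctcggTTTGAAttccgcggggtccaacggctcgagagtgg

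Of the 8 stretches, 7 hold a CHR match, and all 8 hold CCAAT. Bub1 holds no CHR match in its stretch, and Cdca8 carries a CHR match and an inverted CCAAT that overlap in 1 run of capitals. The table held promoters of 35 of the 43 members, 37 promoters in all, since Ect2 and Prc1 have a pair of overlapping entries each. TTTGAA or TTTAAA occurred in 83.8% of these 37 promoters, against 27.6% of all 32851 promoters of the same 300-base length. CCAAT occurred in 78.4% of the members' promoters and in 37.4% of all promoters, and at least 2 copies occurred in 54.1% and 11.7%. Both motifs stood together in 73.0% of the members' promoters and in 10.7% of all promoters. Over all 37 promoters, only the match in Cdca8 overlapped the other motif. A match is a string of letters and was not tested as a binding site. Mad2l1, Nuf2, Nusap1 and Pttg1 held neither motif in their window. The other 8 members are Incenp, Dlgap5, Kif20a, Foxm1, Aurkb, Cdc25c, Tpx2 and Ccna2.

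**Figure D1:**
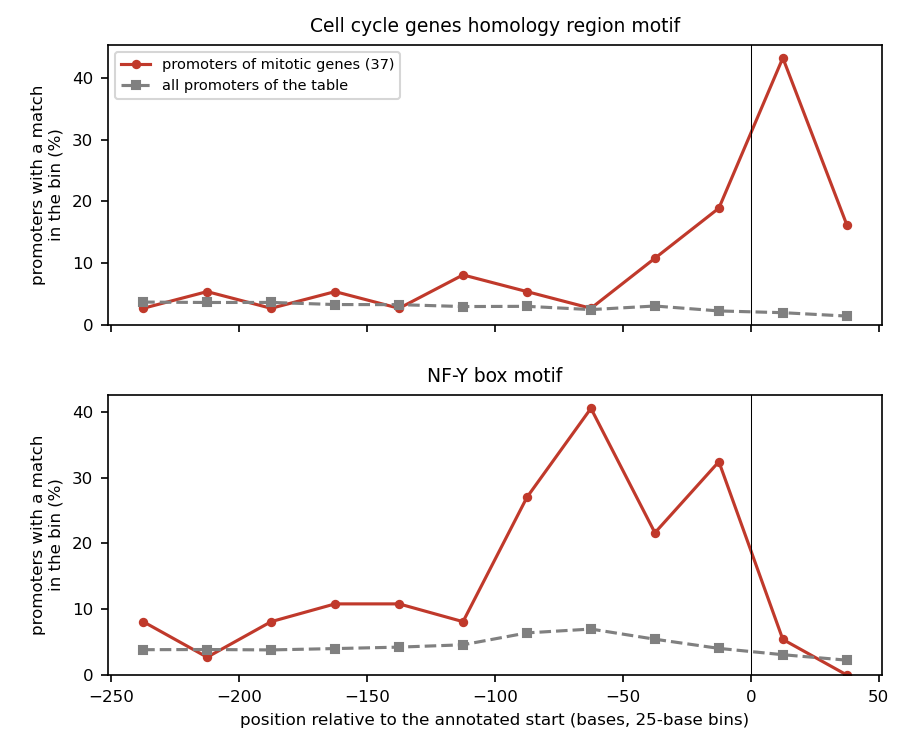
Percent of promoters with a match in each 25-base bin (vertical axis) against the distance from the annotated start in bases (horizontal axis), for the 37 promoters of mitotic genes (red circles) and all 32851 promoters of the table (grey squares). The CHR letters of the mitotic genes peaked just after the start, in 43.2% of promoters against 1.99% of all promoters, and their CCAAT matches peaked between 75 and 50 bases before it, in 40.5% against 6.99%.

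Gaa was lower in all 3 shGAA libraries. This gene, which encodes the lysosomal acid alpha-glucosidase, had 469, 445 and 552 counts in shGAA 1 to 3, against 1033, 1158 and 1119 counts in shScrambled 1 to 3, a log2 fold change of -1.25 (adjusted p = 1.1e-09, edgeR's quasi-likelihood test). Library totals ran from 9224038 to 10430270 counts in shGAA and from 9475245 to 9918142 counts in shScrambled. shScrambled 1 stood apart from its group: the chi-square of its counts, divided by the degrees of freedom, was 5.87 with shScrambled 2 and 5.31 with shScrambled 3, against 2.25 between shScrambled 2 and 3 and 1.95 to 2.54 between shGAA libraries. Over all tested genes, shGAA had 2182 higher and 2330 lower calls (adjusted p under 0.05). Scaled by library size alone, the split was 2809 higher and 1872 lower.

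All 43 mitotic genes fell in shGAA and 0 rose (adjusted p under 0.05, edgeR's quasi-likelihood test), and 0 were higher by DESeq2, by limma-voom or at an unadjusted p under 0.05. The share of all tested genes called lower was 19.7%, and the share called higher was 18.5%. The median log2 fold change of the 43 was -0.58, beside 0.01 over all tested genes, and their fitted levels ran from 50.7% of that in shScrambled for Cdc25c to 81.9% for Kif11. In 42 of the 43 the 3 shGAA libraries all lay below the 3 shScrambled libraries, a pattern seen in 24.9% of tested genes. Kif23 is the exception. Falls of at least 1.5-fold were found in 19 members, or 44.2%, and in 5.24% of all tested genes.

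Summed over the 43 genes, expression was 2978 to 3331 CPM (counts per 1000000 of the TMM-scaled library size) in shGAA and 4493 to 4752 CPM in shScrambled. The lowest shScrambled sum was above the highest shGAA sum. shGAA 3 had the least reduced levels: 41 of its 43 values were above the mean of shGAA 1 and 2, by a median of 0.16 on the log2 scale. Without shGAA 3 the median fold change of the members was -0.63, and without shScrambled 1 it was -0.55, and all 43 were called lower in both cases. In bulk RNA, fewer dividing cells and less mitotic RNA in each dividing cell cannot be told apart.

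**Figure D2:**
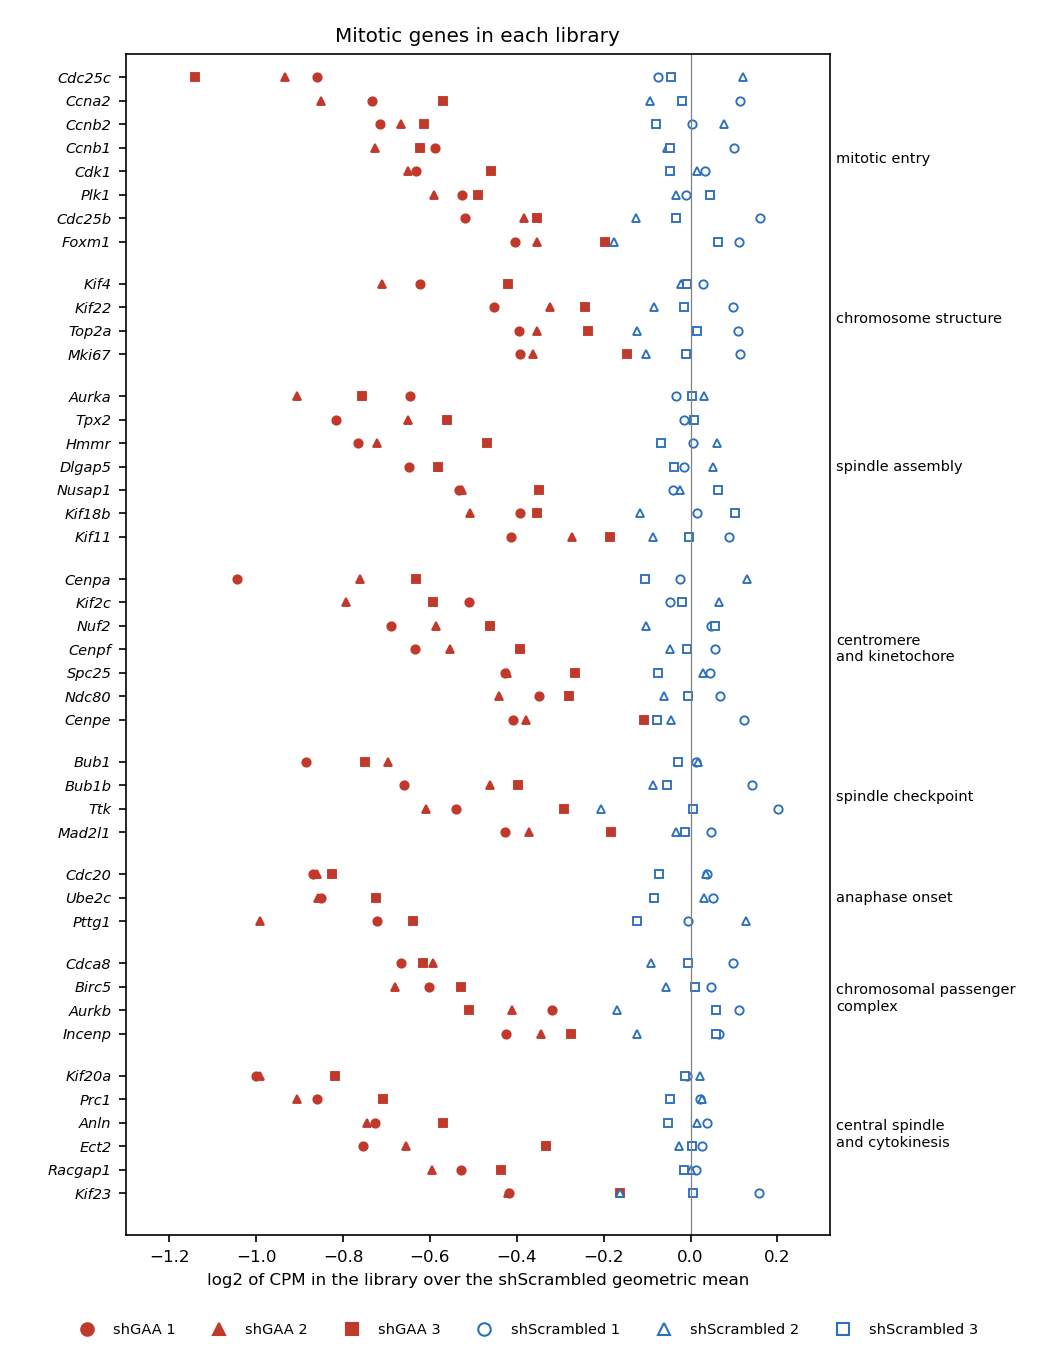
Log2 ratio of the CPM in each library to the geometric mean of the shScrambled libraries (horizontal axis) for the 43 mitotic genes (vertical axis), ordered by step and by fold change within a step. Filled red symbols are the 3 shGAA libraries and open blue symbols the 3 shScrambled libraries. The red symbols lie left of the blue ones in every row but Kif23, where shGAA 3 and shScrambled 2 meet, and the red squares of shGAA 3 are mostly the closest to the blue symbols.

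The 8 genes of mitotic entry had a median log2 fold change of -0.61. Cdc25c, a phosphatase that activates the Cdk1 kinase, was at 13.6, 12.9 and 11.2 CPM in shGAA 1 to 3, against 23.4, 26.8 and 23.9 CPM in shScrambled 1 to 3. Its fitted level in shGAA was 50.7% of that in shScrambled, with no overlap between libraries, and it had the largest fall of the 43 (log2 fold change -0.98, SE 0.11, adjusted p = 3.1e-06, edgeR's quasi-likelihood test). At the other end of this step stood Foxm1, the transcription factor that drives many G2 and M genes, with 64.0, 66.3 and 73.9 CPM in shGAA libraries and 91.5, 75.0 and 88.5 CPM in shScrambled libraries. The gap between the highest shGAA and the lowest shScrambled value of Foxm1 was small, and its log2 fold change was -0.32 (SE 0.08, adjusted p = 0.0042).

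Cyclins of this step had larger fitted falls than their kinase. Ccna2, the A-type cyclin of S and G2 phase, fell by 0.71 on the log2 scale. The mitotic B-type cyclins Ccnb2 and Ccnb1 had log2 fold changes of -0.66 and -0.65, and Cdk1 itself had one of -0.58. The standard errors were 0.06 to 0.08, and the differences between these genes were not tested. Plk1, the polo-like kinase of centrosome maturation and mitotic entry, had a log2 fold change of -0.53. Cdc25b, the phosphatase that acts earlier than Cdc25c, had one of -0.42. Ccna2 and Cdc25c share 12.5% and 12.7% of their exonic bases with genes of the opposite strand. Exosc9, across from Ccna2, had a log2 fold change of 0.09 (adjusted p = 0.44), and Gm3550, across from Cdc25c, was not tested. Ccnb1 shares 23.4% of its 50-base stretches with the pseudogene Ccnb1-ps, and Plk1 6.56% with Plk-ps1, so reads in those stretches are of uncertain origin.

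Chromosome structure was the step with the smallest change, a median of -0.33 over 4 genes. Kif4, a chromosome-bound kinesin that works with condensin, had 43.2, 40.7 and 49.7 CPM in shGAA libraries against 67.9, 65.5 and 66.2 CPM in shScrambled libraries. These groups were well separated, with a log2 fold change of -0.58 (SE 0.07, adjusted p = 1.2e-05). Mki67, the Ki-67 protein that coats mitotic chromosomes and is the standard marker of cycling cells, had 179.9, 184 and 213 CPM in shGAA libraries and 256, 219.8 and 234 CPM in shScrambled libraries. Its groups did not overlap, but shGAA 3 came close to shScrambled 2, and the log2 fold change was -0.30 (SE 0.07, adjusted p = 0.0042). Top2a, the topoisomerase that untangles sister DNA, and Kif22, a kinesin that pushes chromosome arms outward, had changes of -0.33 and -0.34.

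Spindle assembly genes had a median of -0.60 over 7 members. Aurka, the kinase of centrosomes and spindle poles, was at 42.0, 35.1 and 38.9 CPM in shGAA libraries and at 64.2, 67.2 and 65.9 CPM in shScrambled libraries. The shScrambled values were close together and all above the shGAA values, with a log2 fold change of -0.76 (SE 0.07, adjusted p = 4e-07). On the log2 scale, Tpx2, which activates Aurka on microtubules, fell by 0.67, and Hmmr, a spindle-pole protein that binds Tpx2, fell by 0.64. Dlgap5, a microtubule bundler of kinetochore fibres, fell by 0.60 on the same scale. Nusap1, which stabilises spindle microtubules, and Kif18b, which shortens them, had log2 fold changes of -0.47 and -0.42.

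Kif11, the motor that pushes the spindle poles apart, changed least of all 43 genes. It had 67.5, 74.5 and 79.1 CPM in shGAA libraries against 95.7, 84.7 and 89.8 CPM in shScrambled libraries. The groups did not overlap, and the log2 fold change was -0.29 (SE 0.07, adjusted p = 0.0026).

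Centromere and kinetochore genes had a median of -0.52 over 7 members. Cenpa, the histone H3 variant that marks centromeres, had 26.1, 31.7 and 34.7 CPM in shGAA libraries and 52.8, 58.7 and 49.95 CPM in shScrambled libraries. All shGAA values were far below all shScrambled values, with a log2 fold change of -0.80 (SE 0.10, adjusted p = 1.1e-05). Kif2c, which depolymerises microtubules at centromeres, fell by 0.63 on the log2 scale, and Cenpf, a large protein of the outer kinetochore, fell by 0.52. Of the Ndc80 complex, the microtubule anchor of the kinetochore, Nuf2 had a log2 fold change of -0.58 (SE 0.08), Spc25 of -0.37 (SE 0.08) and Ndc80 of -0.35 (SE 0.08).

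Cenpe, the kinesin that moves chromosomes to the metaphase plate, had 73.9, 75.4 and 91.1 CPM in shGAA libraries against 107, 95.0 and 93.0 CPM in shScrambled libraries. Here shGAA 3 nearly reached shScrambled 3. The log2 fold change was -0.29 (SE 0.08, adjusted p = 0.0109), and the call was lost without shGAA 1 or without shGAA 2 (adjusted p = 0.0559 and 0.0582).

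Of the 4 spindle checkpoint genes, Bub1 fell most. This kinase, which recruits other checkpoint proteins to kinetochores, had 41.1, 46.8 and 45.1 CPM in shGAA libraries and 76.5, 76.8 and 74.4 CPM in shScrambled libraries. The shScrambled libraries differed little among themselves, and the log2 fold change was -0.78 (SE 0.07, adjusted p = 1.3e-07). Mad2l1, the protein that binds and inhibits Cdc20, had 40.4, 41.9 and 47.8 CPM in shGAA libraries against 56.1, 53.1 and 53.8 CPM in shScrambled libraries. Its groups were closer but separate, with a log2 fold change of -0.32 (SE 0.07, adjusted p = 0.0024). Bub1b, the BubR1 component of the mitotic checkpoint complex, and Ttk, the Mps1 kinase at the head of the pathway, had changes of -0.51 and -0.48. The median of the step was -0.49, and -0.40 without shScrambled 1.

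Anaphase onset had the lowest median of the 8 steps, -0.81, and the narrowest spread (SD 0.04 over 3 genes). A wider list, described below, placed 18 other genes in this step, with a median of -0.13 (SD 0.19). Of these 18, 5 fell (27.8%) and 1 rose, beside 19.7% lower and 18.5% higher over all tested genes. Cdc20, the activator of the APC/C and the target of the checkpoint, had 76.1, 76.6 and 78.4 CPM in shGAA libraries and 143, 142 and 132 CPM in shScrambled libraries. The 3 shGAA values were almost equal, and the log2 fold change was -0.85 (SE 0.05, adjusted p = 5.7e-09). Pttg1, securin, the inhibitor of separase that the APC/C destroys, had 24.3, 20.2 and 25.8 CPM in shGAA libraries against 39.97, 43.8 and 36.8 CPM in shScrambled libraries. It fell least of the 3 members in this step and still had a log2 fold change of -0.78 (SE 0.10, adjusted p = 1e-05).

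Ube2c, the ubiquitin-conjugating enzyme that works with the APC/C, fell by 0.81 on the log2 scale (SE 0.06). Exons of Ube2c overlap Tnnc2, the fast skeletal troponin C gene on the opposite strand, over 22.8% of their length. Tnnc2 also fell, with 9.48 ± 1.10 CPM in shGAA and 17.9 ± 5.02 CPM in shScrambled (SD, n = 3 each, adjusted p = 0.0015), and counting on strand was not stated, so reads of these genes may be mixed. Cdc20 shares 10.4% of its 50-base stretches with the pseudogene Gm7856.

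The chromosomal passenger complex moves from centromeres to the central spindle at anaphase. Its 4 genes had a median of -0.51. Cdca8, borealin, which anchors the complex, had 37.1, 39.1 and 38.4 CPM in shGAA libraries and 63.0, 55.3 and 58.6 CPM in shScrambled libraries. The groups were widely separated, with a log2 fold change of -0.63 (SE 0.07, adjusted p = 2.9e-06). Incenp, the scaffold of the complex, had 56.9, 60.2 and 63.2 CPM in shGAA libraries against 79.9, 70.1 and 79.5 CPM in shScrambled libraries. No shGAA library reached the shScrambled ones, and the log2 fold change was -0.35 (SE 0.07, adjusted p = 0.00058). Birc5, survivin, fell by 0.60 on the log2 scale, and Aurkb, the kinase of the complex, fell by 0.42. Within this complex the targeting subunits Cdca8 and Birc5 had larger falls than the kinase and its scaffold, a difference that was not tested.

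Central spindle and cytokinesis genes had a median of -0.62 over 6 members, -0.72 without shGAA 3. Kif20a, a kinesin of the central spindle, had 142, 143 and 161 CPM in shGAA libraries and 282, 288 and 281 CPM in shScrambled libraries. The fitted shGAA level was 52.4% of that in shScrambled, with a log2 fold change of -0.93 (SE 0.05, adjusted p = 1.8e-09), the smallest adjusted p of the 43. Exons of Kif20a overlap Cdc23, an APC/C subunit gene on the opposite strand, over 29.3% of their length. Cdc23 had a log2 fold change of -0.18 (adjusted p = 0.0163), much smaller than that of Kif20a.

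Prc1, which bundles the antiparallel microtubules of the central spindle, fell by 0.82 on the log2 scale (SE 0.06). Also on the log2 scale, Anln, the anillin scaffold of the contractile ring, fell by 0.68. Ect2, a guanine nucleotide exchange factor that acts at the furrow, fell by 0.57 on that scale, and Racgap1, a subunit of centralspindlin, by 0.52. Kif23, the motor subunit of centralspindlin, had 49.5, 49.5 and 59.2 CPM in shGAA libraries against 73.9, 59.2 and 66.5 CPM in shScrambled libraries. shGAA 3 and shScrambled 2 had the same level to 3 digits, which makes Kif23 the only member with overlapping groups. Its log2 fold change was -0.33 (SE 0.09, adjusted p = 0.0092), and the call was lost without shGAA 1 or without shGAA 2 (adjusted p = 0.0504 and 0.0508). Pdzd11 and Rccd1 lie across from Kif4 and Prc1 and overlap 15.1% and 11.1% of their exons, and neither of these neighbours was called (log2 fold changes -0.10 and -0.19, adjusted p = 0.29 and 0.429).

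**Figure D3:**
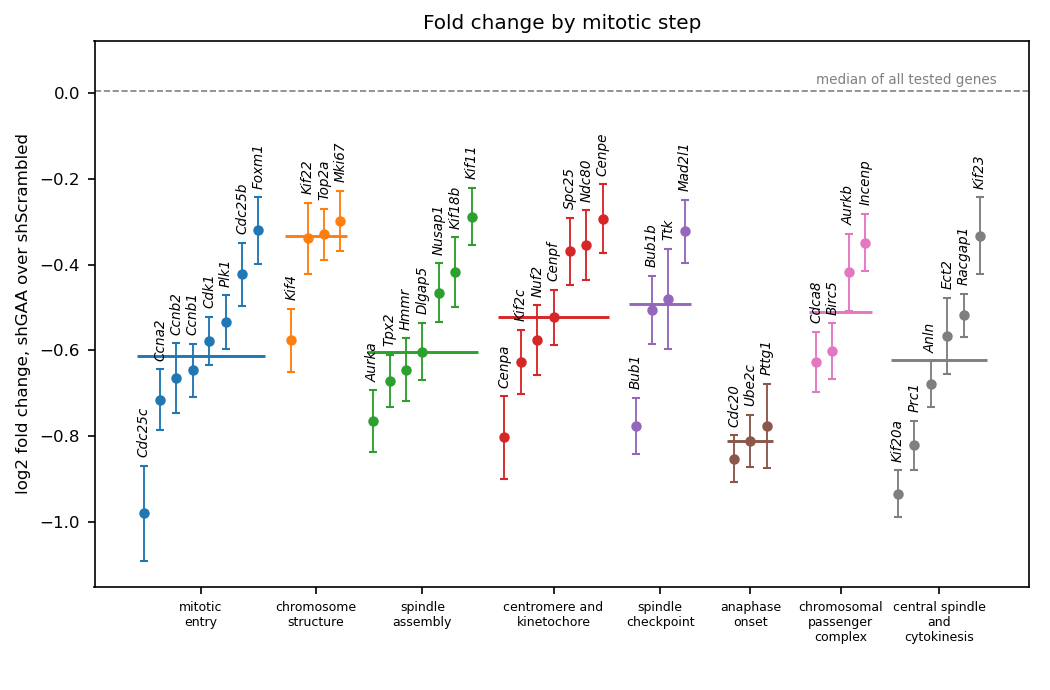
Log2 fold change of shGAA over shScrambled (vertical axis) for the 43 genes, grouped by mitotic step (horizontal axis). Points are edgeR estimates, bars their standard errors, horizontal lines the median of each step, and the dashed line the median of all tested genes, 0.01. Every point lies below the dashed line, anaphase onset is lowest as a step, and 3 of the 4 chromosome structure genes lie near -0.33.

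The spread of fold changes was larger than the error of a single gene. The SD over the 43 log2 fold changes was 0.19, against a median standard error of 0.07. The SD of the 8 step medians was 0.14, and the median SD of the genes within a step was 0.17. Between the largest and the smallest fall of a step lay 0.08 on the log2 scale in anaphase onset, 0.28 in chromosome structure and in the chromosomal passenger complex, and 0.45 to 0.66 in the other steps. In each of the 3 shGAA libraries anaphase onset had the lowest step median, at -0.85, -0.86 and -0.72 against the shScrambled mean. Chromosome structure had the highest step median in each of them, at -0.42, -0.36 and -0.24. Both held their place in the 13 alternative analyses, where anaphase onset ranged from -0.85 to -0.76 and chromosome structure from -0.38 to -0.28. These places are those of the members alone, and the 18 other genes of anaphase onset had a median of -0.13. The order of the other steps was not tested.

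Large falls occurred at high and at low abundance. Divided by exonic length, Cdc20 had the highest level of the 43, at 41.2 CPM per kb in shGAA and 74.5 CPM per kb in shScrambled. Cdc25c had the lowest, at 2.55 CPM per kb in shGAA and 5.03 CPM per kb in shScrambled, and both are among the genes with the largest falls. Across the 43 genes the rank correlation of fold change with mean CPM was -0.05, and with exonic length it was 0.37, the longer genes having somewhat smaller falls. These are descriptions over genes that share the same 6 libraries.

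**Figure D4:**
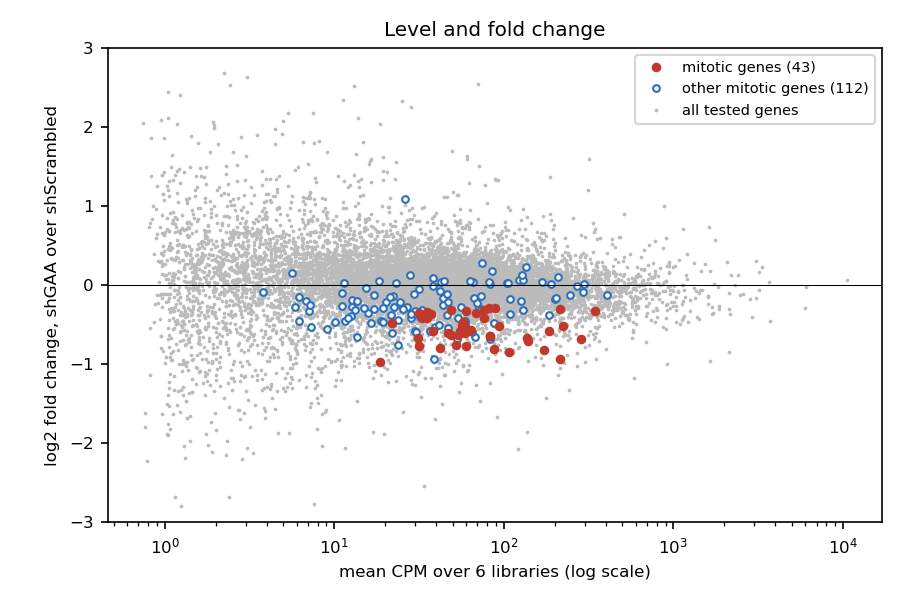
Log2 fold change of shGAA over shScrambled (vertical axis) against mean CPM over the 6 libraries on a log scale (horizontal axis). Red points are the 43 mitotic genes, open blue points 112 other mitotic genes and grey points all 11801 tested genes, of which 7 lie beyond the axis limit of 3. The red points form a band below zero between -0.98 and -0.29, at mean levels of 18.6 to 343 CPM, and the blue points spread from this band to above zero.

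A wider list of 112 mitotic genes, which leaves out the 43, held calls in both directions. Of these, 56 fell (50%), 4 rose and 52 did not pass the test, with a median log2 fold change of -0.24. Over all tested genes 19.7% were lower and 18.5% higher. Of 14 central spindle and cytokinesis genes in this list, 10 fell (71.4%). Among them Cep55, which recruits the abscission machinery to the midbody, had 26.5, 24.3 and 29.2 CPM in shGAA libraries against 53.7, 48.5 and 51.2 CPM in shScrambled libraries. These groups lay far apart (log2 fold change -0.94, adjusted p = 1.8e-07). The other 5 falls with the smallest adjusted p were Arhgap11a, a GTPase-activating protein (-0.68), Nek2, a centrosomal kinase (-0.68), Tacc3, a stabiliser of kinetochore fibres (-0.66), Ckap2l, a spindle protein (-0.60), and Ncapd2, a condensin I subunit (-0.48).

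The same list holds several large assemblies, which were not compared by a test. Of 8 condensin subunits, 7 fell (87.5%), with a median of -0.35 (-0.40 to -0.30 over all alternatives). Without shGAA 1, shGAA 2, shGAA 3 or shScrambled 3, 6 condensin subunits fell. Of 14 APC/C subunits, 4 fell (28.6%) and 1 rose, against 19.7% lower and 18.5% higher over all tested genes, with a median of 0.00 (-0.03 to 0.05 over all alternatives, 0.05 when scaled by library size alone). Of 8 cohesin subunits and partners, 2 fell (25%) and 2 rose, with a median of 0.04 (0.02 to 0.09 over all alternatives). The APC/C and cohesin shares of falls were near that over all tested genes, and their counts depended on the method and on single libraries. By DESeq2, by limma-voom, in the non-robust fit, with no filter and with the replicate block, 3 APC/C subunits fell. In these 5 settings Anapc15 lost its call. Of the cohesin genes, 1 rose by DESeq2, by limma-voom, in the non-robust fit and with the replicate block, and 1 fell with that block. Without shGAA 2 or without shScrambled 3, 2 APC/C subunits fell. Of the cohesin genes 0 fell without shGAA 1, 1 fell without shGAA 2 or shScrambled 2, and 1 rose without any library other than shScrambled 1. When scaled by library size alone, 2 APC/C subunits and 0 cohesin genes fell, and 2 of each rose.

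Of the 4 genes that rose, Psrc1, a microtubule-binding protein of the spindle, stood out. It had 34.0, 35.2 and 38.1 CPM in shGAA libraries against 17.7, 17.3 and 15.7 CPM in shScrambled libraries. All shGAA values were far above all shScrambled values, with a log2 fold change of 1.08 (SE 0.09, adjusted p = 1.4e-07). The other 3 rises were small on the log2 scale, Cdc16, an APC/C subunit, by 0.28 (adjusted p = 0.0011), Stag2, a cohesin subunit, by 0.23 (adjusted p = 0.0043), and Pds5b, a cohesin regulator, by 0.17 (adjusted p = 0.0433). The Pds5b call was lost with the replicate block (adjusted p = 0.0662), by DESeq2 (0.108), by limma-voom (0.0511) and in the non-robust fit (0.0534). It was also lost without shGAA 1, shGAA 2, shGAA 3, shScrambled 2 or shScrambled 3 (adjusted p = 0.0578, 0.113, 0.135, 0.195 and 0.118).

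**Figure D5:**
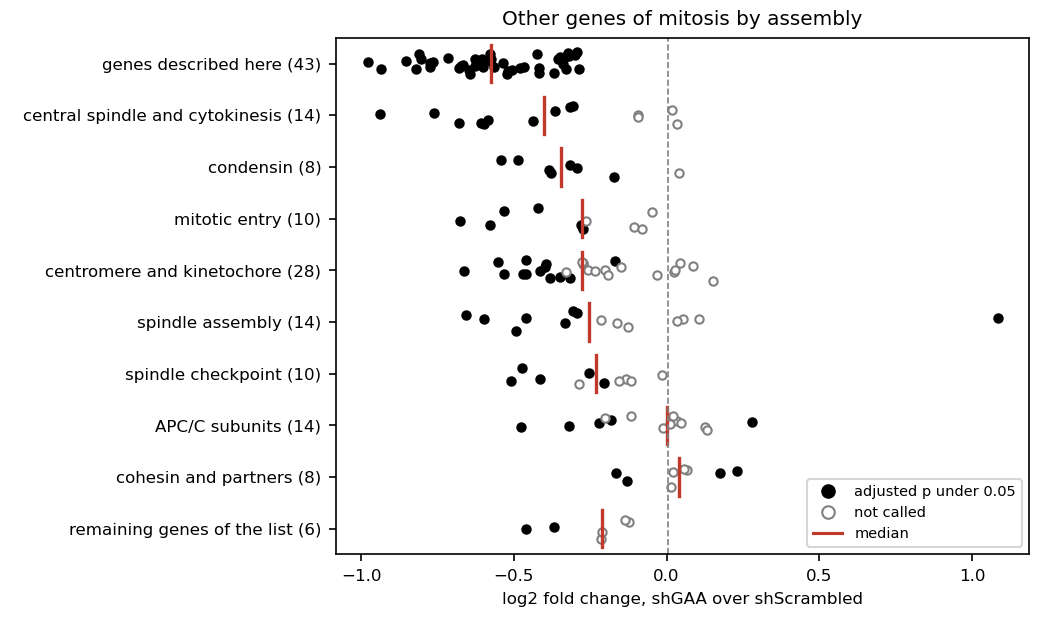
Log2 fold change of shGAA over shScrambled (horizontal axis) for the 43 genes and for 112 other mitotic genes by group (rows, with the number of genes in brackets). Filled points have an adjusted p under 0.05, open points do not, red bars are medians and the dashed line is the median of all tested genes. Condensin and cytokinesis genes lie mostly left of the line, APC/C subunits and cohesin lie around it, and Psrc1 is the lone point near 1.08.

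Of 11 genes of the B-Myb-MuvB and DREAM complexes, 3 fell (27.3%), 1 rose and 7 did not pass the test, beside 19.7% lower and 18.5% higher over all tested genes. Rbl1, the pocket protein p107, fell by 0.45 on the log2 scale (adjusted p = 0.0026) and E2f4, its E2F partner, by 0.34 (adjusted p = 0.000616), while Rbl2, the pocket protein p130 of resting cells, rose by 0.26 (adjusted p = 0.0063). Mybl2, the B-Myb activator, had 11.2 ± 1.10 CPM in shGAA and 12.8 ± 2.24 CPM in shScrambled (SD, n = 3 each) and did not pass the test (adjusted p = 0.315). Tfdp1, the DNA-binding partner of E2F proteins, fell by 0.18 on the log2 scale (adjusted p = 0.0238), a call that was lost without shGAA 1, shGAA 2, shScrambled 1 or shScrambled 3 (adjusted p = 0.0681, 0.108, 0.0776 and 0.0532). Of the 3 NF-Y subunits, Nfya rose by 0.25 and Nfyc fell by 0.20 on the log2 scale, and both calls depended on single libraries or on the setting. The Nfya call was lost without shGAA 3 or shScrambled 2 (adjusted p = 0.06 and 0.0722), and the Nfyc call without shGAA 1, shGAA 3, shScrambled 2 or shScrambled 3 (adjusted p = 0.122, 0.0899, 0.0822 and 0.0553). When scaled by library size alone, Tfdp1 and Nfyc were not called (adjusted p = 0.0864 and 0.0932), and by DESeq2 Nfyc was not called (adjusted p = 0.126).

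Of 5 tested cycle-exit genes, 1 rose (Cdkn1a), 1 fell (Cdkn2c, 20% of the list) and 3 did not pass the test. Over all tested genes 18.5% were higher and 19.7% lower, so the counts of this list were near those shares. Cdkn1a, the kinase inhibitor p21 that myoblasts induce as they leave the cycle, had 746, 751 and 688 CPM in shGAA libraries against 563, 572 and 569 CPM in shScrambled libraries. Every shGAA value was above every shScrambled value, with a log2 fold change of 0.36 (adjusted p = 9.9e-06). Cdkn2c, the inhibitor p18, had a log2 fold change of -0.43 (adjusted p = 0.000372). Cdkn1b, the inhibitor p27, had overlapping groups and did not pass the test in the comparison of all libraries (0.17, adjusted p = 0.0932, edgeR's quasi-likelihood test). It was called higher when scaled by library size alone (0.22, adjusted p = 0.0364) and without shGAA 1 (0.23, adjusted p = 0.0499).

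Of 14 tested myotube markers 9 fell (64.3%), 5 did not pass the test and 0 rose (0 also by DESeq2, by limma-voom and at an unadjusted p under 0.05). Over all tested genes 19.7% were lower and 18.5% higher. The markers had a median of -0.57 and sums of 2442 to 2668 CPM in shGAA and 3207 to 3606 CPM in shScrambled. Over the alternatives 8 to 12 fell. Casq2 was also called lower with no filter, in the non-robust fit, by limma-voom, with a replicate block and without shScrambled 1 or shScrambled 2. So was Tnnt3 in the non-robust fit and without shScrambled 2, and Myh8 without shScrambled 2. Mymk, the myomaker protein of myoblast fusion, had 35.1, 43.7 and 39.9 CPM in shGAA libraries against 101, 66.6 and 83.0 CPM in shScrambled libraries. The groups did not overlap, with a log2 fold change of -1.08 (adjusted p = 0.0043). Myog, the regulator that starts terminal differentiation, fell by 0.43 on the log2 scale (adjusted p = 0.0021) and Acta1, skeletal actin, by 0.71 (adjusted p = 0.000133). Ttn, titin, at 0.14 in the comparison of all libraries (adjusted p = 0.115), was called higher when scaled by library size alone (0.19, adjusted p = 0.0407), with no filter on low counts (0.14, adjusted p = 0.0486), without shGAA 1 (0.21, adjusted p = 0.028) and without shScrambled 1 (0.20, adjusted p = 0.00673). Myod1, a regulator of the muscle lineage, had a log2 fold change of 0.04 (adjusted p = 0.684). The Myh3 call, an embryonic myosin at -1.24, was lost without any 1 of the shGAA libraries (adjusted p = 0.0926, 0.0755 and 0.0996). Des, desmin, the intermediate filament of muscle cells, was at 1664 ± 82.0 CPM in shGAA and 2047 ± 37.2 CPM in shScrambled (SD, n = 3 each), and the late regulator Myf6 had 7 counts over all libraries. The part of the myotube markers in the fall of the mitotic genes was not tested.

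Of 7 tested markers of undifferentiated myoblasts, 3 rose and 0 fell (0 also by DESeq2, by limma-voom and at an unadjusted p under 0.05). Over all tested genes 18.5% were higher and 19.7% lower. A list of 7 genes is too short to set 3 rises or 0 falls apart from those shares. The markers summed to 507 to 548 CPM in shGAA and 373 to 471 CPM in shScrambled. Heyl, a Notch target, had a log2 fold change of 1.14 (adjusted p = 3.9e-05), Id3, an inhibitor of myogenic factors, one of 0.75 (adjusted p = 4.6e-06), and Myf5, a regulator of the myoblast state, one of 0.51 (adjusted p = 0.0013). Without shScrambled 1, Id2 and Vcam1 were also called higher (adjusted p = 0.0078 and 2.8e-06), which makes 5 of 7. Pax7 and Pax3, the defining genes of muscle stem cells, had 46 and 3 counts over all libraries and were not tested. Of the markers of other cells, 4 of 5 leukocyte, 2 of 4 endothelial and 1 of 5 fibroblast markers were below the filter, and Ptprc, Itgam, Pecam1 and Thy1 had 2, 0, 2 and 0 counts over all libraries. The leukocyte sum, that of Cd68 alone, which was not called, was 1.32 to 2.04 CPM in shGAA and 2.36 to 2.46 CPM in shScrambled, and the endothelial sum 4.14 to 5.01 CPM in shGAA and 2.35 to 4.73 CPM in shScrambled. Of the endothelial genes, Tek had a log2 fold change of 1.32 (adjusted p = 0.00176) and Cdh5 one of -1.35 (adjusted p = 0.028), a call lost without shGAA 1, shGAA 2 or shScrambled 2 (adjusted p = 0.116, 0.0997 and 0.155) and by DESeq2 (0.0801). Fibroblast markers summed to 65.6 to 78.5 CPM in shGAA and 77.6 to 89.98 CPM in shScrambled, with Col1a1, a collagen chain, at a log2 fold change of -1.10 (adjusted p = 1.96e-07). Of the other 3 tested fibroblast genes, Lum had a log2 fold change of 0.33 (adjusted p = 0.0405), a call lost without shGAA 2, shGAA 3 or shScrambled 1 (adjusted p = 0.119, 0.166 and 0.121) and by DESeq2 (0.0685). Pdgfra did not pass the test in the comparison of all libraries (0.28, adjusted p = 0.257, edgeR's quasi-likelihood test). It was called higher without shScrambled 1 (0.56, adjusted p = 0.000235) and with no filter on low counts (0.28, adjusted p = 0.0464). Col1a1 was at 20.0 ± 1.43 CPM in shGAA and 43.1 ± 4.93 CPM in shScrambled, Lum at 29.5 ± 2.92 CPM in shGAA and 23.5 ± 4.10 CPM in shScrambled, and Pdgfra at 20.7 ± 2.37 CPM in shGAA and 17.0 ± 5.07 CPM in shScrambled (SD, n = 3 each). The part of these markers in the fall of the mitotic genes was not tested.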

How the data were processed

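The authors deposited raw read counts per gene symbol, 1 column per library, and the tests were run on these counts. The submitters' processing notes name mm10, HISAT2 2.1.0, Subread, FastQC and edgeR. Annotation, strand use and handling of multi-mapping reads: not given in the sources used here. Genes were kept by filterByExpr, scaled by TMM and tested by edgeR's quasi-likelihood test (edgeR 4.0.16, R 4.3.3, robust, with a term for group alone), and p-values were adjusted by Benjamini-Hochberg over the 11801 tested genes. Kept genes held 99.9% of each library. Each fold change is shGAA over shScrambled, in log2. CPM is the count per 1000000 of the TMM-scaled library size, given as mean ± SD over 3 libraries, and a standard error (SE) is the coefficient over the square root of its F statistic. A gene's groups do not overlap where all 3 values of 1 group lie beyond all 3 of the other.

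The members, the steps and the lists of other mitotic genes, regulators and markers were chosen with earlier results of these data known, so they are no independent support. In each step the genes with the largest and the smallest fall are given in every library; of the other mitotic genes, up to 6 that fell and up to 6 that rose with the smallest adjusted p are named. Members are accounted for whatever their test. Exonic lengths, opposite-strand overlaps (over 10% of exons) and shared 50-base stretches come from GENCODE M21 (GRCm38), with older symbols matched through RefSeq synonyms. Promoters are the RefSeq stretches from 250 bases before to 50 after each start, searched on both strands. The code was tested on simulated data. Alternatives were library size or RLE as scaling, no filter, a non-robust fit, DESeq2 1.42.0, limma-voom (limma 3.58.1), a replicate block and leaving out each library.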

Additional observations from a re-analysis of the deposited data

How the results depend on the processing

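All 43 mitotic genes had a negative log2 fold change in each of 13 alternative analyses, and their median ranged from -0.63 without shGAA 3 to -0.52 without shGAA 2. All 43 were called lower in 11 of the analyses and 41 without shGAA 1 and without shGAA 2, where Cenpe and Kif23 lost their calls. Of the other mitotic genes, 41 to 57 fell and 3 to 6 rose, 43 and 3 by DESeq2. Step medians moved by more than 0.09, the SD between shGAA libraries of the members' median log2 ratio, in 2 cases, central spindle and cytokinesis (-0.72 without shGAA 3) and spindle checkpoint (-0.40 without shScrambled 1). Deviations from the group means of libraries that share a number correlated across genes at -0.04, 0.06 and -0.01 for numbers 1 to 3, and of the shGAA libraries only shGAA 2 correlated best with its own number, so the numbers were not taken as pairs. With a replicate block 43 members fell, with a median of -0.58, and 2037 genes were higher and 2197 lower. The 43 genes had 1075 to 19941 counts each over the 6 libraries. Depth limits Cdc25c most, with 119 to 133 counts per shGAA library.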

Other observations

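Promoter letters and fold change were compared over all tested genes with a promoter entry, as a description. Genes with both TTTGAA or TTTAAA and CCAAT that are in neither mitotic list numbered 885, of which 19.4% were lower and 17.4% higher in shGAA, with a median log2 fold change of 0.00. Over all 8892 unlisted genes with a promoter entry, whatever their motifs, 18.9% were lower and 18.3% higher. Among the 43 mitotic genes, the 25 with both motifs had a median of -0.53, and the 4 with neither had a median of -0.52. Among the 112 other mitotic genes, 18 of 30 with both motifs were lower, beside 10 of 26 with neither. With CCAAT alone 9 of 20 were lower, and with TTTGAA or TTTAAA alone 5 of 13. Of all 89 with a promoter entry 47.2% were lower, beside 19.5% of all tested genes with an entry. The differences between these classes were not tested.

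Several genes with both motifs and no place in the lists were among those with the smallest adjusted p. Spp1, which encodes osteopontin, had 1529 ± 36.5 CPM in shGAA and 2743 ± 169.7 CPM in shScrambled (SD, n = 3 each; log2 fold change -0.84, adjusted p = 1.3e-09, edgeR's quasi-likelihood test), and Tubb4b, a beta-tubulin, had 289.9 ± 11.0 CPM in shGAA and 423 ± 16.1 CPM in shScrambled (log2 fold change -0.55, adjusted p = 1.8e-07). Postn, periostin, was higher, with 119.6 ± 3.81 CPM in shGAA and 20.5 ± 4.78 CPM in shScrambled (log2 fold change 2.54, adjusted p = 4.7e-08). These 3 genes were chosen after their values were seen.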
